A study of Mus musculus with 5 samples.

Results

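The B cell and antibody genes comprised 29 genes, chosen by symbol as genes of the antigen receptor of B cells, its signalling, the B cell transcription program and antibody assembly. All 29 were on the Affymetrix mouse array, where 58 of 45101 probe sets carried the symbol of 1 of them and of no other gene. They served as a gauge of B cell and plasma cell RNA in samples that the labels call CD4 T cells of BALB/c mouse spleen. Each of 5 groups had 1 array: naive CD4 T cells, control effector Th1 cells, Rap effector Th1 cells, TOFA effector Th1 cells and memory Th1 cells. TOFA inhibits acetyl-CoA carboxylase, the enzyme that commits acetyl-CoA to fatty acid synthesis and whose first isoform, Acc1, is named in the study's title; what Rap stands for is not stated. The labels attach the same Th1 culture, with IL-2 at 15 ng/ml and IL-12 at 10 ng/ml for 5 days, to all 5 samples. The sample titles do not say which cells were cultured, so whether the naive and memory cells were cannot be told. How the naive and memory cells were purified, how the memory cells were made, the age of the mice and the doses of Rap and TOFA are not stated in the labels.

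B cells recognise antigen with a membrane immunoglobulin held by the CD79A and CD79B chains, which pass the signal to the kinases SYK and BTK through the adaptor BLNK. The transcription factors PAX5 and EBF1 commit cells to the B lineage, and a B cell that becomes a plasma cell loses much of this program and secretes antibody joined by the J chain. The spleen is rich in B cells, and RNA of these genes in a T cell sample can come from other cells in it. Whether it did so here was not tested. Not all of the genes are restricted to B cells: Syk, Btk, Ly86 and Cd180 are also used by myeloid cells, and Fcmr by T cells.

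The signals are linear array values, quantile normalized so that the 5 arrays share 1 distribution. Signals under 43.4, the 40th percentile, were taken as a floor, and a gene at the floor on both arrays of a comparison was not compared. With 1 array per group no p-value and no error between replicates can be given, the number of arrays limits the precision, and "higher" and "lower" describe these arrays, with a gene counted from a 2-fold difference. All 16 measured T cell markers were above the floor on every array, and their summed signal lay between 80825 and 131060.0, the highest in naive cells. Cd4 had signals of 897 in naive and 483 in memory cells, and 628, 525 and 536 in control, Rap and TOFA effectors. As a sign of RNA quality, control probe sets at the 3' end of Gapdh read 0.832 to 0.918 times those at its 5' end, and those of beta-actin 1.26 to 1.45 times. In such bulk samples, fewer cells of a type and less RNA per cell cannot be told apart.

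The memory array had the highest signal of the 5 for 26 of the 29 genes, where it was the highest for 22.3% of all genes above the floor on at least 1 array. The naive array was the highest for 2, Tnfrsf17 and H2-Ob (25.2% of all genes), and the Rap array for 1, Tnfrsf13b (16.1%). For 25 of the 29 the order was the same, memory above naive and naive above all 3 effector arrays, an order held by 9.74% of all genes. The 4 others were Pax5, H2-Ob, Tnfrsf13b and Tnfrsf17. All 29 genes were above the floor in naive cells and 28 in memory cells, against 22 in control effector, 23 in Rap effector and 22 in TOFA effector cells. For 4 genes, Cd79a, Btk, Fcrla and Tnfrsf17, all 3 effector arrays were at or under the floor.

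**Figure D1:**
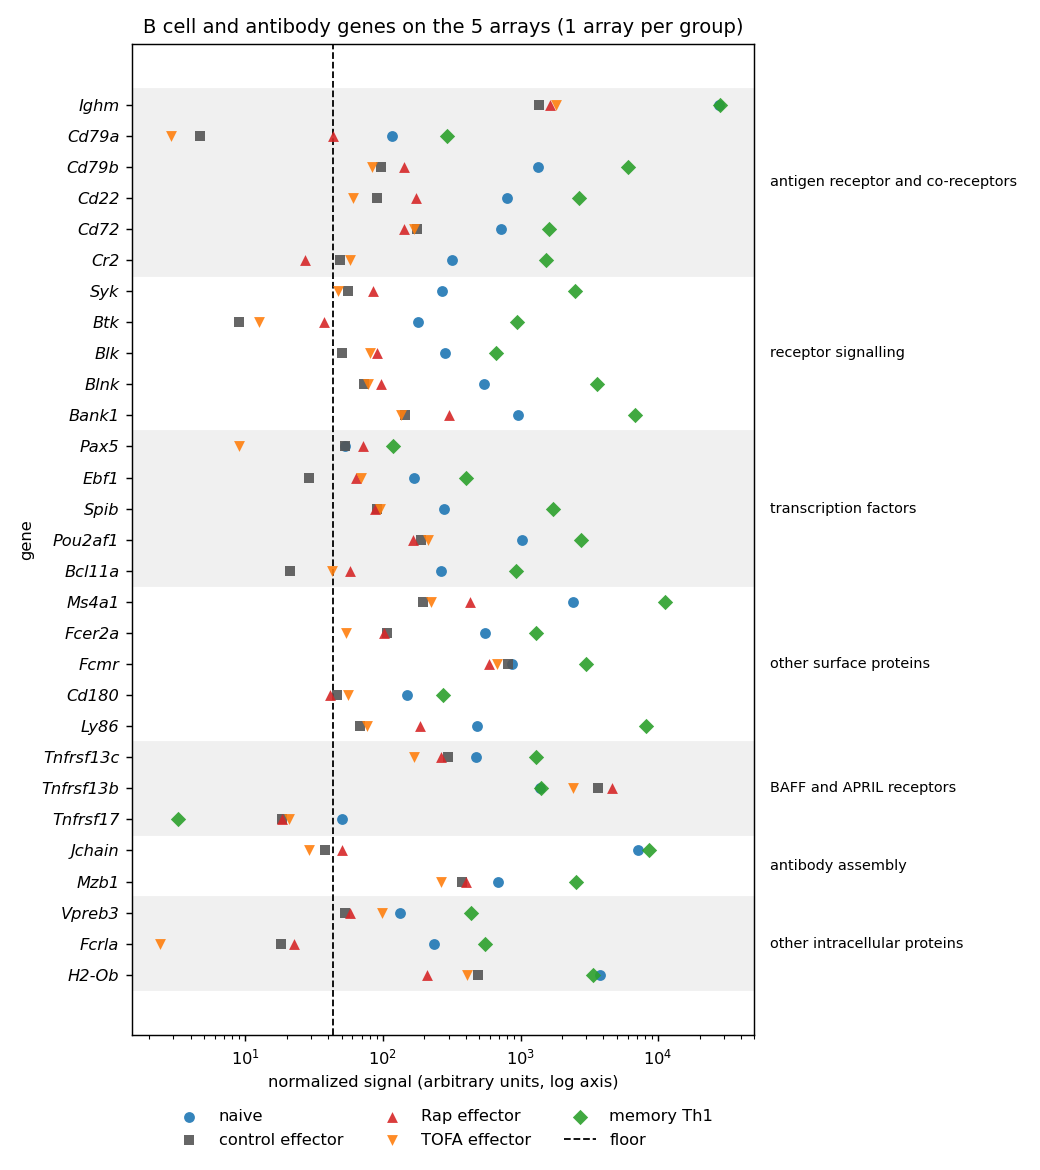
Normalized signal (log axis, arbitrary units) of the 29 genes on the 5 arrays, 1 point per array, grouped by role; the dashed line is the floor of 43.4 and points left of it are under the floor. The memory points are furthest right for 26 of 29 genes, the effector points lie to the left of the naive point for most genes, and Tnfrsf13b has its effector points to the right. Signals of different genes are not comparable with each other.

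Because 25 genes shared this order, stretches around the start sites of members were searched for 3 sequence motifs of B cell transcription factors. No promoter was at hand for Ighm, Cd79b, Blk, Ms4a1 and Mzb1, which share the order. Pax5, H2-Ob, Tnfrsf13b and Tnfrsf17, which do not, were searched too. RefSeq promoters of 24 members were used, each from 250 bases before to 50 bases after a start site (GRCm38.p6), both strands were read, and no match overlapped another. The octamer ATGCAAAT, bound by the OCT factors that the product of Pou2af1 assists, was present in Blnk and Vpreb3, 2 of 29 member promoters, and in 1.74% of all 32851 promoters. The EBF1 motif, TCCC and GGGA with any 2 bases between them, was present in Cd22 alone of the member promoters and in 0.904% of all, and GAGGAAGT, read by PU.1 and SPI-B, in Cd72 alone and in 3.20% of all. The match began 130 bases before the start site in Blnk, 49 in Cd22 and Cd72 and 45 in Vpreb3. The 250 bases before the start site are shown for these 4 genes and for Tnfrsf13b, which had no match. Most searched members with the common order of arrays had no match either, so the 5 stretches are examples and not a comparison. Capitals mark the matches, which are letters in a window and not measured binding sites. They lie at chr7:30879029-30879278 (minus strand) for Cd22, chr4:43454627-43454876 (minus) for Cd72, chr19:40994222-40994471 (minus) for Blnk, chr10:75948050-75948299 (plus) for Vpreb3 and chr11:61126505-61126754 (plus) for Tnfrsf13b.
Cd22: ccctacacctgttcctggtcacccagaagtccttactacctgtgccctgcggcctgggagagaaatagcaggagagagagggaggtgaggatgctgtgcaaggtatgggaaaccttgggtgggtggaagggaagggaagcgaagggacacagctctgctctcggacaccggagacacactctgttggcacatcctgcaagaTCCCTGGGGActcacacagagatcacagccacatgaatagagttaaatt
Cd72: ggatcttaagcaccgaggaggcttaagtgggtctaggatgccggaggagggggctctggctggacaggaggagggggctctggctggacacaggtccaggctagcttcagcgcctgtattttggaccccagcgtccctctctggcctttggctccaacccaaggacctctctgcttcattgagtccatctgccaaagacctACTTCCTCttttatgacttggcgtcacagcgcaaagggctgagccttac
Blnk: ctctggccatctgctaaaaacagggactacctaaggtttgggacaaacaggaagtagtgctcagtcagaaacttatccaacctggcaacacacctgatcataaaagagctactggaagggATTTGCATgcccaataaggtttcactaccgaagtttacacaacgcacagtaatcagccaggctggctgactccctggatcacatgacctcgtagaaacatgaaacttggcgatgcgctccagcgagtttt
Vpreb3: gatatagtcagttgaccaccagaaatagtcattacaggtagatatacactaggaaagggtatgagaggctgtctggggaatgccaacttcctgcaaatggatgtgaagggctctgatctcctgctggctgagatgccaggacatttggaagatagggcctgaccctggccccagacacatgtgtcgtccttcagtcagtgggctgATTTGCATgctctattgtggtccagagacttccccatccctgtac
Tnfrsf13b: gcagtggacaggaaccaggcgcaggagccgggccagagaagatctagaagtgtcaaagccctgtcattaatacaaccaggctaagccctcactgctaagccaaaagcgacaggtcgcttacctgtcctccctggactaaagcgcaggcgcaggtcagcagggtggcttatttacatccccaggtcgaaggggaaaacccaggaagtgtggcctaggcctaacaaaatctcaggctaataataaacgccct

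The comparison of memory with naive cells set side by side the 2 groups with the most signal from these genes. In the memory array 23 of 29 genes had at least 2-fold more signal and 0 had at least 2-fold less, where 12.6% and 4.14% of all 13085 genes compared did. The median difference was 1.45 on the log2 scale, beside -0.05 over all genes, and single genes ranged from -0.21 to 4.07. Ly86, Syk, Bank1, Blnk and Spib were 16.8-fold, 9.23-fold, 7.10-fold, 6.67-fold and 6.26-fold higher. On the probe sets used for them, Ighm and Jchain, genes of secreted IgM, were 1.03-fold and 1.21-fold apart, as were Tnfrsf13b and H2-Ob at 1.01-fold and 1.13-fold. Of the 23 higher genes, 4 fell under 2-fold with at least 1 other setting: Cd79a (0.96 on the log2 scale with the floor at the 60th percentile), Pax5 (0.67), Fcer2a (0.92) and Fcrla, the last 3 as means over probe sets. Cd180, 1.82-fold higher, passed 2-fold with the values as deposited (1.04).

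Control effector cells were set against naive cells to compare the signal of these genes between the samples. In the control effector array 23 of 29 genes were at least 2-fold lower, against 11.4% of all 13070 genes compared, and 1 was higher, against 15.9%. The median difference was -2.37, beside 0.04 over all genes. Jchain was at least 164-fold lower, Ighm 20.4-fold, Cd79b 13.8-fold and Ms4a1 12.2-fold lower. Pax5, Fcmr, Mzb1 and Tnfrsf13c were under 2-fold apart, Tnfrsf17 was at least 1.15-fold lower with its control effector signal under the floor, and Tnfrsf13b was 2.62-fold higher. Mzb1 was past 2-fold with the values as deposited (-1.11) and Tnfrsf17 with the floor at the 20th percentile (-1.43). With the floor at the 60th percentile, where 25 genes could be compared, 13 were at least 2-fold lower.

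**Figure D2:**
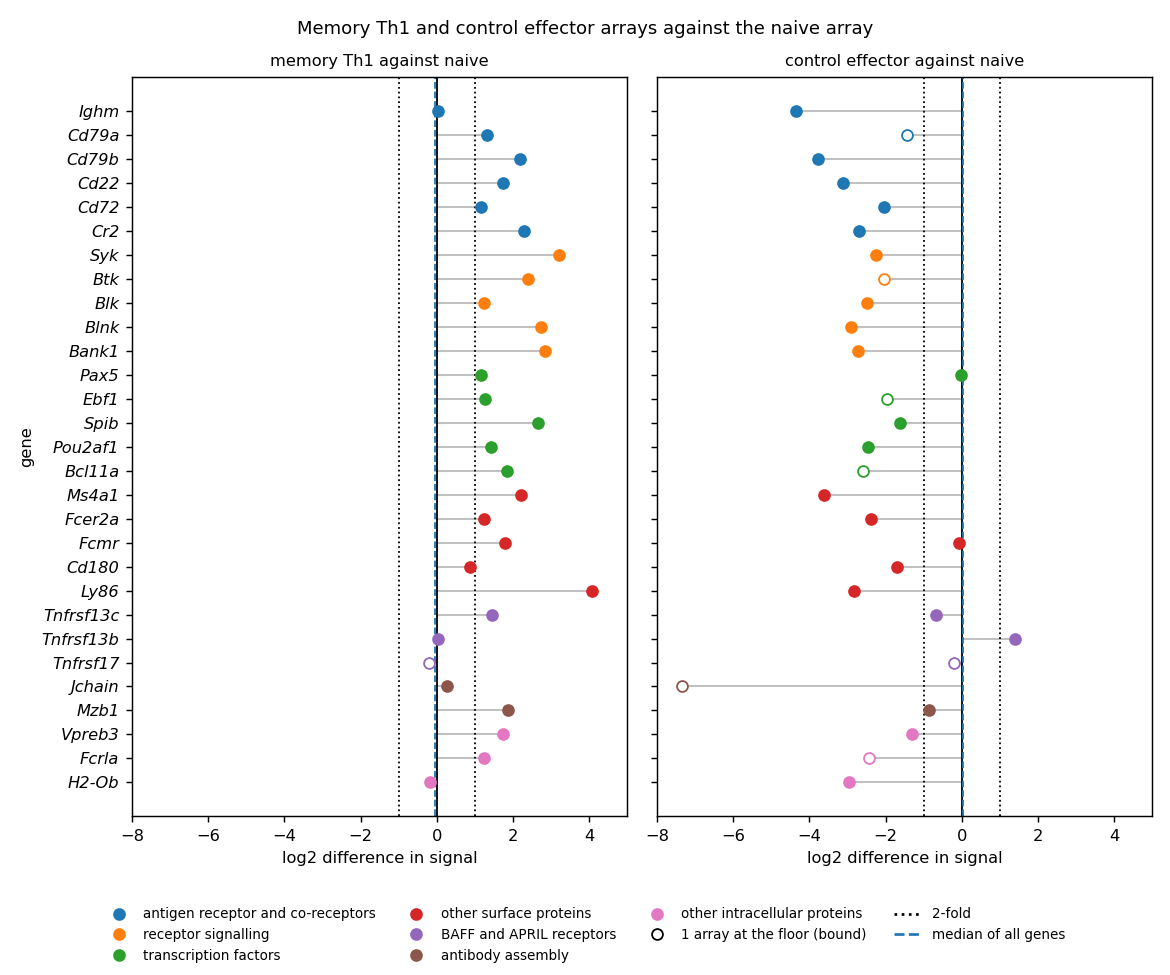
Log2 difference in signal of each gene in memory Th1 (left) and control effector (right) against naive cells, 1 array each; open circles are bounds with 1 array at the floor, dotted lines mark 2-fold and the dashed line the median of all genes. Of 29 genes, 23 lie right of the upper 2-fold line in the left panel and 23 lie left of the lower line in the right panel, while Ighm, Jchain, Tnfrsf13b and H2-Ob lie within 2-fold of 0 in the left panel.

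Among the antigen receptor genes, Ighm encodes the heavy chain of IgM. Its signals were 27615 in naive and 28364 in memory cells, and 1352, 1647 and 1815 in control, Rap and TOFA effectors. On this probe set the naive and memory arrays were alike and both stood far above the 3 effector arrays. Only 192 probe sets on the naive array and 186 on the memory array were brighter, and the highest signal on any array was 55818.9. A second bright probe set of Ighm read 11636 in naive and 16887 in memory cells, a difference of 0.54 on the log2 scale. All 7 other probe sets of Ighm that could be compared were higher in memory than in naive cells, 3 of them past 2-fold, with a median of 0.82. The 3 past 2-fold were dim, with naive signals of 63.8, 53.3 and 200 and memory signals of 165, 130 and 463.

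The chains that carry the receptor differed more between memory and naive cells. Cd79b, the signalling beta chain, had signals of 1338 in naive and 6079 in memory cells, and 97.0, 143 and 83.6 in control, Rap and TOFA effectors, 4.54-fold higher in memory than in naive cells. Cd79a, its partner, had 117 in naive and 292 in memory cells, and its effector signals of 4.70, 43.3 and 2.89 were all under the floor. Both chains thus had the same order of memory and naive arrays, with Cd79a 2.50-fold higher in memory cells. The co-receptor genes followed it too. Cd22, an inhibitory receptor that binds sialic acid, had signals of 792 in naive and 2647 in memory cells, and 91.1, 175 and 60.8 in control, Rap and TOFA effectors. Cr2, the complement receptor that lowers the threshold of B cell activation, had 318 in naive and 1535 in memory cells, and 48.7, 26.9 and 57.6 in control, Rap and TOFA effectors. Cd72, an inhibitory lectin, ran from 142 in Rap effector to 725 in naive and 1617 in memory cells. These 3 genes were 3.34-fold, 4.84-fold and 2.23-fold higher in memory than in naive cells, and 8.70-fold, 6.53-fold and 4.11-fold lower in control effector cells.

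All 5 signalling genes were at least 2-fold higher in memory than in naive cells, with a median of 2.74, the highest of the roles. Syk, the kinase that docks on the phosphorylated receptor chains, had signals of 268 in naive and 2475 in memory cells, and 55.9, 85.0 and 47.3 in control, Rap and TOFA effectors. Btk, the kinase that activates phospholipase C, had 179 in naive and 945 in memory cells, and 8.97, 37.3 and 12.6 in the effector arrays, under the floor. Blnk, the adaptor between them, had 543 in naive and 3618 in memory cells, and 72.3, 96.3 and 78.4 in control, Rap and TOFA effectors. Bank1, a B cell scaffold protein, had 957 in naive and 6792 in memory cells, and 145, 304 and 136 in control, Rap and TOFA effectors. Blk, a Src family kinase, differed least between memory and naive cells of these 5 genes (2.35-fold), with 282 in naive and 664 in memory cells and 50.3 to 90.9 in the effector arrays. No effector signal of these 5 genes reached the naive signal of the same gene.

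The 5 transcription factor genes were 2-fold or more higher in memory than in naive cells, with a median of 1.42. Pou2af1, the coactivator of OCT factors, had signals of 1032 in naive and 2769 in memory cells, and 188, 165 and 212 in control, Rap and TOFA effectors. Spib, an ETS factor also used by plasmacytoid dendritic cells, had 277 in naive and 1732 in memory cells, and 90.2, 87.7 and 95.7 in control, Rap and TOFA effectors. For both genes the 3 effector arrays lay close together and below the naive array. Ebf1 had 169 in naive and 404 in memory cells, against 29.1 in control effector, 63.5 in Rap effector and 69.2 in TOFA effector cells. Bcl11a, which B cells and plasmacytoid dendritic cells need, had 262 in naive and 932 in memory cells, against 21.2, 57.3 and 42.8 in control, Rap and TOFA effector cells. Pax5 was measured near the floor, with 53.4 in naive and 118 in memory cells, and 52.7, 71.3 and 9.05 in control, Rap and TOFA effectors. Its naive and control effector signals did not differ by more than 1.01-fold, so this gene did not separate those arrays.

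Of the other surface protein genes, Ms4a1 encodes CD20. Its signals were 2404 in naive and 11144 in memory cells, and 197, 431 and 224 in control, Rap and TOFA effectors, so that memory was 4.64-fold above naive and naive 12.2-fold above control effector cells. Fcer2a, the low-affinity IgE receptor CD23 of follicular B cells, had 551 in naive and 1303 in memory cells, and 106, 101 and 54.0 in control, Rap and TOFA effectors. Both genes separated memory, naive and effector arrays in the same order. Ly86, which encodes MD-1, the partner of CD180, had 487 in naive and 8181 in memory cells, and 68.6, 186 and 77.2 in control, Rap and TOFA effectors. Its own partner gene Cd180 had 151 in naive and 275 in memory cells and between 41.3 and 56.1 in the effector arrays. Ly86 was thus 16.8-fold and Cd180 1.82-fold higher in memory than in naive cells, although their products form 1 complex. Fcmr, the IgM receptor, was within 2-fold of its naive level on all 3 effector arrays, with 862 in naive and 2966 in memory cells, and 817, 593 and 673 in control, Rap and TOFA effectors.

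The receptors for the B cell survival factors BAFF and APRIL did not move together. Tnfrsf13c, the BAFF receptor, had signals of 472 in naive and 1292 in memory cells, and 295, 264 and 168 in control, Rap and TOFA effectors. Tnfrsf13b, which encodes TACI, had 1389.8 in naive and 1406 in memory cells, and 3646, 4619 and 2410.3 in control, Rap and TOFA effectors. It was the only member with every effector array above both the naive and the memory array. It had 1 probe set, so no other probe set bears on this order. Tnfrsf17, which encodes BCMA, the receptor of plasma cells, had 50.1 in naive cells and at most 20.8 on the other arrays, and 3.23 in memory cells. Its naive signal was above the floor and the 4 others were not.

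The antibody assembly genes split. Jchain, which joins secreted IgM and IgA, had signals of 7103 in naive and 8561 in memory cells, and 38.2, 50.4 and 29.2 in control, Rap and TOFA effectors. It was at least 197-fold higher in memory than in control effector cells, yet 1.21-fold above naive cells. Mzb1, an endoplasmic reticulum protein that helps antibody secretion, had 691 in naive and 2511 in memory cells, and 378, 399 and 263 in control, Rap and TOFA effectors. Mzb1 was therefore 3.63-fold higher in memory than in naive cells and only 1.83-fold lower in control effector cells. Of the remaining intracellular genes, H2-Ob, a chain of the MHC class II modulator DO, had 3797 in naive and 3375 in memory cells, and 487, 208 and 405 in control, Rap and TOFA effectors. Vpreb3, a B lineage chaperone of the receptor, had 132 in naive and 437 in memory cells, and 53.0, 57.9 and 97.7 in control, Rap and TOFA effectors. Fcrla, an Fc receptor-like protein inside B cells, had 235 in naive and 552 in memory cells and at most 22.5 in the effector arrays. H2-Ob was the highest in naive cells, as was Tnfrsf17.

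Memory cells were also compared with control effector cells. In the memory array 27 of 28 genes compared were at least 2-fold higher, against 14.5% of all 13326 genes, and 1, Tnfrsf13b, was 2.59-fold lower, against 14.0%. The median was 3.80, beside -0.03 over all genes. Ly86 was 119-fold, Cd79b 62.7-fold, Ms4a1 56.6-fold and Blnk 50.1-fold higher. With the values as deposited the median over all genes was 0.18 in this comparison, a shift of the whole array, and that of the members 3.95.

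The comparison of Rap with control effector cells asked whether these genes differed between effector samples. In the Rap array 3 of 25 genes compared were at least 2-fold higher, against 1.82% of all 12851 genes, and 1 was lower, against 3.91%. The 3 were Ly86 (186 against 68.6, 2.71-fold), Ms4a1 (431 against 197, 2.19-fold) and Bank1 (304 against 145, 2.10-fold). Cd22 was 1.93-fold and Blk 1.81-fold apart in the same direction, while H2-Ob was 2.34-fold lower (208 against 487). The median was 0.28, beside -0.00 over all genes, and 16 genes lay above 0 and 9 below, as did 6360 and 6481 of all genes. With the floor added to each signal in place of a minimum, 1 gene was at least 2-fold higher, and with the floor at the 20th percentile 7 were, of 29 compared. Ly86 fell under 2-fold (0.30) with the floor at the 60th percentile. Of the 25 genes above the floor in at least 1 effector array, Rap had the highest effector signal for 13, TOFA for 7 and control for 5, where the shares over all 13385 such genes were 32.4%, 34.0% and 33.6%.

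TOFA effector cells shared their control array with the Rap cells. In the TOFA array 0 of 23 genes compared had at least 2-fold more signal and 0 had at least 2-fold less, against 2.48% and 2.15% of all 12850 genes. The median was -0.07, beside 0.01 over all genes, and the genes lay between -0.98 and 0.88. Fcer2a, with 54.0 against 106, was 1.97-fold lower, and Vpreb3, with 97.7 against 53.0, was 1.84-fold higher. Ms4a1 stood at 224 against 197, Bank1 at 136 against 145, Cd22 at 60.8 against 91.1 and Ly86 at 77.2 against 68.6. With the values as deposited Fcer2a passed 2-fold (-1.10), and with the floor at the 20th percentile 2 genes were higher (1 of them Ebf1, 1.25) and 1, Pax5, was lower (-1.94).

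Compared directly, 3 of 25 genes were at least 2-fold lower in TOFA than in Rap cells, against 1.35% of all 12801 genes, and 0 were higher, against 3.28%. They were Cd22 (60.8 against 175, 2.88-fold), Ly86 (77.2 against 186, 2.41-fold) and Bank1 (136 against 304, 2.23-fold). Ms4a1 was 1.93-fold and Tnfrsf13b 1.92-fold lower, while H2-Ob was 1.95-fold higher. The median was -0.30, beside 0.02 over all genes. The number of genes at least 2-fold lower was 5 with the values as deposited, 6 with the floor at the 20th percentile and 1 with it at the 60th.

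**Figure D3:**
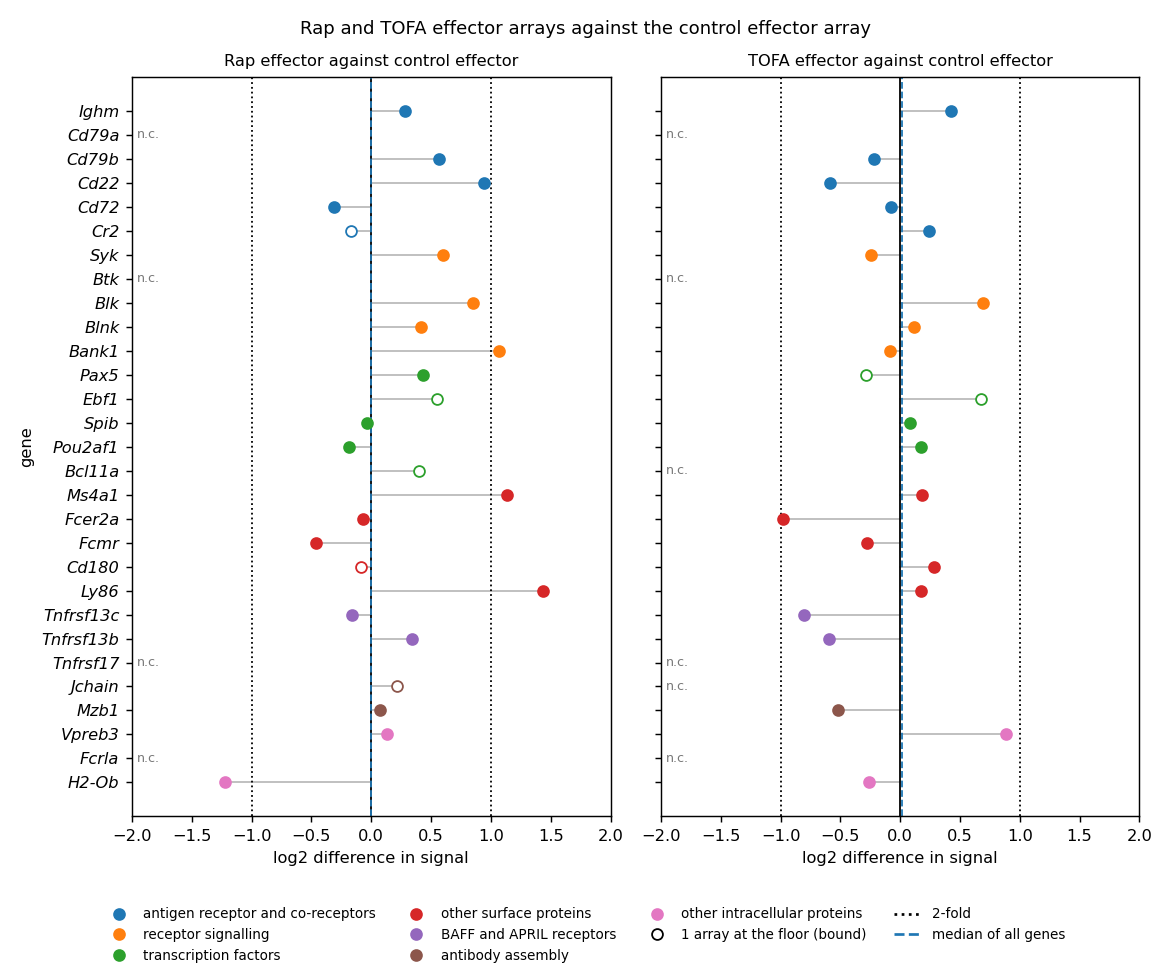
Log2 difference in signal of each gene in Rap effector (left) and TOFA effector (right) cells against the same control effector array, 1 array each; open circles are bounds with 1 array at the floor, n.c. marks genes at the floor on both arrays, dotted lines mark 2-fold. Ly86, Ms4a1 and Bank1 pass the upper line and H2-Ob the lower line in the left panel, and no gene passes either line in the right panel.

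Of a list of 31 other genes of the B lineage, 27 were read on the array. The order of memory above naive and naive above all 3 effector arrays held for 13 of the 27, against 9.74% of all genes. In memory against naive cells 19 of 26 compared were at least 2-fold higher and 1 was lower, against 12.6% and 4.14% of all genes. The median was 1.59. The lower gene, Bach2, was named after its values were seen. The 4 genes of the list with the largest differences were Pik3ap1, an adaptor of PI3 kinase (5481 against 234), Cd86, a costimulatory ligand (2795 against 138), Irf8 (4176 against 416) and Hhex (1635 against 228). Cd86, Irf8 and Pik3ap1 are also used by myeloid cells. In control effector against naive cells 12 of 26 were at least 2-fold lower and 2 higher, against 11.4% and 15.9% of all genes. The median was -0.91, and the higher ones were Pik3ap1 (1982 against 234) and Irf8 (3151 against 416). In Rap against control effector cells 4 of 25 were at least 2-fold higher and 2 lower, against 1.82% and 3.91% of all genes, and in TOFA against control effector cells 3 were higher and 1 lower, against 2.48% and 2.15%. Cd83, a surface protein of activated lymphocytes and dendritic cells, had 219, 681 and 552 in control, Rap and TOFA effectors. Cd86 had 212, 606 and 436 on the same arrays, and Pik3ap1 1982, 343 and 661. The Rap and TOFA arrays thus both lay above their shared control array for Cd83 and Cd86 and below it for Pik3ap1. Other genes of the list passed 2-fold upward only in the Rap or only in the TOFA array. Napsa was 2.39-fold and Btla 2.35-fold higher in Rap cells, and 1.52-fold and 1.31-fold in TOFA cells. Cd40 was 3.15-fold higher in TOFA and 1.21-fold in Rap cells.

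Some other immunoglobulin genes had probe sets that carry no other gene symbol. Of these, Iglv1, a lambda light chain gene segment, had signals of 720.5 in naive and 4648 in memory cells. It had 16.7, 103 and 37.6 in control, Rap and TOFA effectors. Igha, the heavy chain of IgA, had 575 in naive and 1680 in memory cells, and 100.1, 78.7 and 74.6 in control, Rap and TOFA effectors. Both were higher in memory than in naive cells, by 6.45-fold and 2.92-fold, where Ighm and Jchain were under 2-fold apart on the probe sets used. The probe sets of Iglv1 and Igha end in _x_at and were not shown to match these genes alone. Igk had 315 in naive and 276 in memory cells and at most 9.64 in the effector arrays. The list of plasma cell and secretory genes went another way in control effector against naive cells. Of its 12 genes, 5 were past 2-fold upward and 1 downward, against 15.9% and 11.4% of all genes. Among the genes past 2-fold upward, Irf4 (4264 against 186), Prdm1 (1482 against 303) and Xbp1 (30407 against 6716) are also genes of activated T cells. The others were Slamf7 (1462 against 82.7) and Ell2 (801 against 305), and the source of these differences was not tested. Sdc1, the plasma cell surface protein CD138, had 94.3 in naive, 114 in memory and at most 30.9 in the effector arrays. The germinal centre list had 0 of 5 genes past 2-fold in memory against naive cells, with a median of -0.11. Over all genes 12.6% were higher and 4.14% lower, and 5 genes are too few to tell 0 from these shares. Of the 6 B cell precursor genes, 3 could be compared in memory against naive cells, with 1 at least 2-fold higher and 1 lower, beside the same shares. Cd93, a surface protein also found on myeloid cells, had 683 in memory and 54.0 in naive cells, Igll1, a surrogate light chain gene, had 100.4 and 55.3, and Dntt, which encodes terminal transferase, 2.35 and 145.

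Markers of other cell types moved beside these genes, and their part in the differences was not tested. The counts below stand beside the shares over all genes in memory against naive cells. There 12.6% were at least 2-fold higher and 4.14% at least 2-fold lower. All 12 macrophage markers were at least 2-fold higher in memory than in naive cells, with a median of 6.85, and their summed signal was 128274 in memory and 1341 in naive cells, and 495, 362 and 881 in control, Rap and TOFA effectors. C1qa, a complement chain made by macrophages, had 16548 in memory cells and between 1.85 and 7.72 on the other arrays, under the floor. The members named above as also used by myeloid cells were higher in memory than in naive cells. The differences were 16.8-fold for Ly86, 9.23-fold for Syk, 5.27-fold for Btk and 1.82-fold for Cd180. The other members ran from at least 1.15-fold lower for Tnfrsf17 to 7.10-fold higher for Bank1. Among them, Blnk at 6.67-fold and Spib at 6.26-fold higher were above Btk. Cd22 at 3.34-fold and Blk at 2.35-fold higher lay between Btk and Cd180. The neutrophil markers summed to 12874 in memory, 6009.6 in naive and between 225.0 and 258 in the effector arrays, and most members shared this order of the sums. Single neutrophil markers were mixed. Of 10 compared in memory against naive cells, 7 lay above 0 and 3 below, with a median of 0.52 on the log2 scale. At least 2-fold, 3 were higher and 1, Mpo, was lower (4.24-fold). Elane and Mmp8 were also lower, with memory signals under the floor. The largest signals of the list were those of S100a8 and S100a9 (4239 in memory and 1692 in naive cells for S100a9). S100a8, a neutrophil calcium-binding protein, had 6853 in memory, 2914 in naive and between 20.3 and 24.1 in the effector arrays. Dendritic cell markers summed to 14201 in memory and 3022 in naive cells, and CD8 T cell markers to 1072 and 703. H2-Ab1, an MHC class II gene, gave 10978 of the dendritic sum in memory and 1424 in naive cells. Of the other dendritic markers, Itgax was higher in memory cells (843 against 41.6, under the floor) and Ccr9 lower (165 against 394). Erythroid markers summed to 2809 in memory and 207 in naive cells, with 4 of 5 at least 2-fold higher and a median of 1.79. Summed T cell markers were 92221 in memory against 131060.0 in naive cells, and 3 of the 16 were at least 2-fold lower, against 4.14% of all genes.

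**Figure D4:**
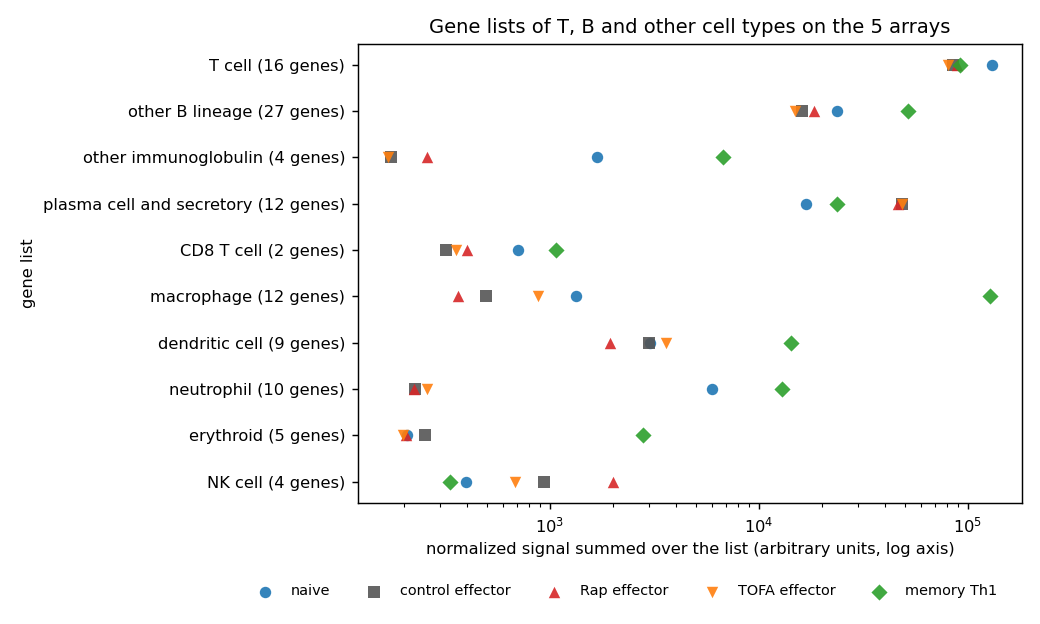
Normalized signal summed over gene lists of T cells, B lineage cells and other cell types (log axis, arbitrary units) on the 5 arrays, 1 point per array. The macrophage sum is 128274 in memory cells and at most 1341 elsewhere, and the neutrophil, dendritic, CD8, erythroid, other B lineage and immunoglobulin sums are also highest in memory cells, while the T cell sum is highest in naive cells.

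Probe sets gave the internal check that the data hold. Of the 29 genes, 20 had 1 probe set, and the other 9 had between 2 and 11. In memory against naive cells all 23 other probe sets that could be compared went the same way as the one used for their gene, and 16 of them were past 2-fold. In control effector against naive cells 19 of 20 went the same way and 9 were past 2-fold. In Rap against control effector cells 11 of 15 did so, and in TOFA against control effector cells 2 of 7. Over all 58 member probe sets, 39 of 52 compared were at least 2-fold higher in memory than in naive cells, against 10.2% of all probe sets, and 32 of 49 were at least 2-fold lower in control effector than in naive cells, against 12.3%. Ighm had 11 probe sets, of which 2 were bright. The 5 dimmer ones compared in control effector against naive cells lay between -0.56 and 0.22, so a mean over its probe sets gave -0.94 in place of -4.35. Ms4a1 had 2, at -3.61 and -3.64 in that comparison and at 2.21 and 1.88 in memory against naive cells.

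**Figure D5:**
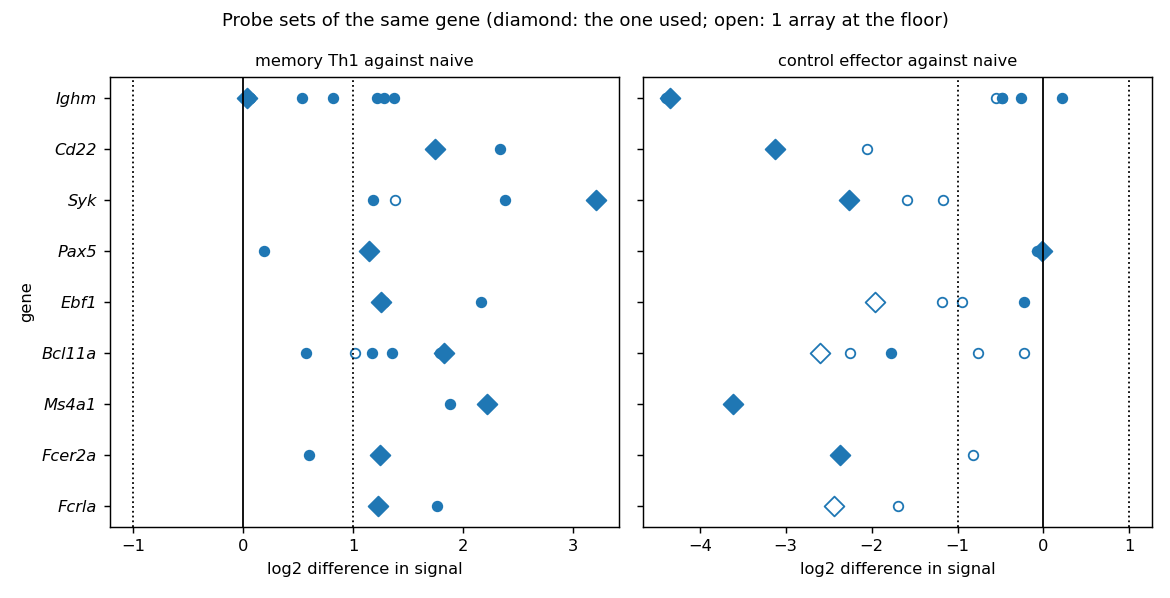
Log2 difference in signal of each probe set, for the 9 genes with more than 1, in memory Th1 (left) and control effector (right) against naive cells; diamonds are the probe sets used for the gene and open symbols are bounds with 1 array at the floor. In the left panel all points lie above 0, and in the right panel the bright and the dim probe sets of Ighm lie apart.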

How the data were processed

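Total RNA from 5 samples was measured on Affymetrix mouse arrays, 1 array per sample. The authors deposited 1 intensity per probe set and array, on a linear scale, made with GCOS and Affymetrix Expression Console per the submitters' processing notes. The sources used here name neither algorithm nor versions. The mean after trimming 2% at each end was 500.003 on every array, and array medians, from 63.1 to 99.5, differed by 0.658 on the log2 scale. Arrays were therefore quantile normalized (numpy 2.4.6, pandas 2.3.3), because the difference passed the limit of 0.5, and a floor was set at the 40th percentile (43.4). Of 45037 probe sets that are not controls, 34945 had 1 symbol in the platform's 2016 annotation and 932 had several. Each of 18193 genes was read from its brightest probe set, by mean log2 signal after flooring; 14522 exceeded the floor on at least 1 array.

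Differences are log2 values between 2 arrays, in 6 comparisons, and no test was made. Any member could be named; other genes were named from fixed lists, by the up to 4 largest differences in a list and comparison and as fixed markers of cell types; Bach2 was named after its values were seen. Members and lists were chosen with earlier results of these data known. Simulated data with known folds were used to test the scripts. The alternatives tried were the unnormalized values, a lower (20th percentile) and a higher (60th) floor, the floor as an added constant, means over probe sets, and leaving out probe sets ending in _x_at or _s_at. Promoters came from RefSeq and matched 24 of 29 members.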

Additional observations from a re-analysis of the deposited data

Results flagged for a closer look

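Some probe sets outside the members, because they carry several gene symbols, gave signal in memory cells at least 2-fold above the higher of the control effector signal and the floor. They were picked for this signal in data that the comparisons do not use. A total of 3 probe sets shared among kappa light chain genes had memory signals of 18253, 20733 and 20361, naive signals of 15361, 19029 and 18253, and control effector signals of 272, 963 and 834. A probe set shared by lambda light chain genes had 4919 in memory, 1728 in naive and 8.25 in control effector cells. A probe set shared by kappa variable segments had 180.5 in memory, 201 in naive and 72.7 in control effector cells. No group of this series has enough arrays for a search for outlying samples.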

How the results depend on the processing

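The direction of the member median was the same under all 6 alternatives in each of the 6 comparisons, and it stayed on the same side of 2-fold. For memory against naive cells the median ran from 1.39 to 1.72, and for control effector against naive cells from -2.57 to -1.08. Counts that moved by over 1.5 times were few. With the floor at the 20th percentile, 7 genes were at least 2-fold higher in Rap than in control effector cells in place of 3, 2 higher and 1 lower in TOFA than in control effector cells in place of 0, 1 higher and 6 lower in TOFA than in Rap cells in place of 0 and 3, and 1 lower in memory than in naive cells in place of 0. With the floor at the 60th percentile, 13 genes in place of 23 were lower in control effector than in naive cells, and 1 in place of 3 in TOFA than in Rap cells. This floor leaves fewer genes to compare and shortens differences with a signal near it. With the floor as an added constant, 1 gene in place of 3 was higher in Rap cells and 1 in place of 0 lower in memory than in naive cells. With the values as deposited, 1 gene was lower in TOFA than in control effector cells and 5 in TOFA than in Rap cells; the cause was not tested. Over single members, 43 of 907 values changed their side of 2-fold, and none of a gene past 2-fold reversed. No paired analysis was possible because each group has 1 array. Signals near the floor, as for Pax5, Tnfrsf17 and most members in the effector arrays, limit what these arrays can show.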
